A study of Mus musculus with 2 samples.

Results

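Mx1, Mx2, Bst2, Ifitm1, Ifitm2, Ifitm3, Samhd1, Apobec3, Eif2ak2 and Adar are 10 genes whose products act inside or at the surface of an infected cell against viruses. The cells studied were LT-HSCs, long-term haematopoietic stem cells, from which all blood lineages descend. The genes were taken by name from the annotation of the arrays. All 10 were found, as 24 transcript rows, among 24203 genes measured. The study compared 1 array of cells from mice in which the circular RNA cia-cGAS was knocked out with 1 array of cells from wild-type mice, all C57BL/6 animals of 8 weeks with no treatment named. Marrow was flushed from the bones and the cells were sorted, with no statement of sort markers, cell numbers or pooling of animals. With 1 array in each group, no difference below has a replicate check and no test was run.

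Restriction factors are proteins that block a step of a virus's life cycle, and many are induced by type I interferon. Interferon signals through a complex that includes STAT2 and IRF9 and binds the interferon-stimulated response element (ISRE) in promoters of their targets. The factors act at different steps. MX proteins are dynamin-like GTPases that trap incoming viral components. IFITM proteins hinder fusion of viruses with endosomal membranes, and BST2, also called tetherin, holds budding virus at the cell surface. SAMHD1 breaks down deoxynucleotides needed for reverse transcription, APOBEC3 deaminates retroviral DNA, EIF2AK2 (PKR) stops translation when it binds double-stranded RNA, and ADAR edits adenosine to inosine in such RNA. In C57BL/6 and most other inbred laboratory strains, Mx1 and Mx2 are known to carry mutations that prevent a functional protein, and the RefSeq annotation of the C57BL/6J genome lists both as transcribed pseudogenes. Values of these genes are therefore transcript levels, not a measure of MX protein.

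RefSeq promoter windows of the GRCm38.p6 build, running from 250 bases before an annotated transcript start to 50 after it, were at hand for 8 of the 10 genes, in 11 windows. None was at hand for Mx1 and Mx2. The windows were searched on both strands for the ISRE core (GAAA, any 2 bases, GAAA), for the shorter IRF element AANNGAAA, which lies inside every ISRE core, and for the STAT-binding GAS element TTCNNNGAA. Bst2, Ifitm2, Ifitm3, Apobec3 and Eif2ak2 held at least 1 ISRE core. By window, the core was found in 5 of the 11, against 3.44% of all 32851 RefSeq windows. The IRF element was found in 6 of the 11 windows, against 23.9% of all, and the GAS element in 5 of the 11, against 8.30%. These windows show how the letters of an interferon-responsive element are placed near the starts of these genes, and capitals mark ISRE cores and IRF elements. The window of Eif2ak2 (chr17:78882523-78882822, minus strand) holds a core 18 bases after the start, and that of Ifitm3 (chr7:141010695-141010994, minus strand) holds 1 core 2 bases and another 19 bases after it. The window of the most downstream of 3 annotated starts of Adar (chr3:89730468-89730767, plus strand) holds an IRF element 29 bases after the start. The window of Samhd1 (chr2:157135047-157135346, minus strand) holds neither.
Eif2ak2: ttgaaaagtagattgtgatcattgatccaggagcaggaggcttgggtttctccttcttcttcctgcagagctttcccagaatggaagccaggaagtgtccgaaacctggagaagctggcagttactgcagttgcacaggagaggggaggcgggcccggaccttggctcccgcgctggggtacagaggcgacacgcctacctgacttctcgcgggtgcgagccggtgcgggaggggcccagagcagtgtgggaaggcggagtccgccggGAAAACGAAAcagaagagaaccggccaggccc
Ifitm3: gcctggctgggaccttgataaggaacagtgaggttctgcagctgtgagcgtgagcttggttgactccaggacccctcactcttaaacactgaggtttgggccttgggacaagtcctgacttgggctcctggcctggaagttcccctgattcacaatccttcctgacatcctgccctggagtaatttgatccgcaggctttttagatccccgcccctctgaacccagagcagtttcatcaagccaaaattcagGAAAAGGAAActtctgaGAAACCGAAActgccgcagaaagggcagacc
Adar: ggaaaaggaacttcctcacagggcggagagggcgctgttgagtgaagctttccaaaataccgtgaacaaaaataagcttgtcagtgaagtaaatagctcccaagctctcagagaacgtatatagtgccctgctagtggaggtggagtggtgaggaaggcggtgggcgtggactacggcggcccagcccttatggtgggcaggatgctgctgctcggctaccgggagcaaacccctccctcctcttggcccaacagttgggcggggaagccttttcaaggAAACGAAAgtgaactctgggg
Samhd1: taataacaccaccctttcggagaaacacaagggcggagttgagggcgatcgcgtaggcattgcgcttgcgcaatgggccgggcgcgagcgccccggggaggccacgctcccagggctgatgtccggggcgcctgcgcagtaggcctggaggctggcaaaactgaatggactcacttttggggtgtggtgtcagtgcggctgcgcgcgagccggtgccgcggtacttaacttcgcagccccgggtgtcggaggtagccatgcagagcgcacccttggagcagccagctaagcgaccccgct

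Shorter stretches show the ISRE cores alone, in capitals, for the other 3 genes that hold one. In Bst2 (chr8:71537575-71537614, minus strand) a pair of overlapping cores begins 130 bases before the start. The core of Ifitm2 (chr7:140955986-140956019, minus strand) begins 46 bases before the start, and that of Apobec3 (chr15:79892256-79892289, plus strand), on the opposite strand, 140 bases before it.
Bst2: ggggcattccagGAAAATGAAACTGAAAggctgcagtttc
Ifitm2: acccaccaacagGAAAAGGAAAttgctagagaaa
Apobec3: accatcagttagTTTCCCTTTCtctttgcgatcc

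**Figure D1:**
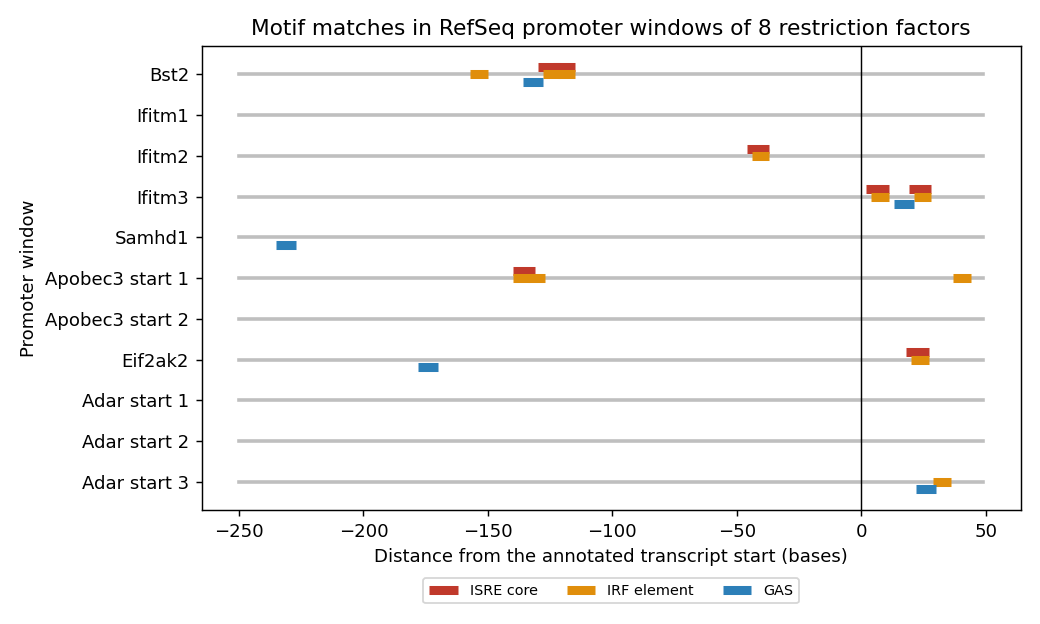
Positions of motif matches in the 11 RefSeq promoter windows of 8 genes, with the distance from the annotated transcript start in bases on the horizontal axis and 1 line for each window. Bars mark ISRE cores, IRF elements and GAS elements on either strand, and the windows of Ifitm1, of the second start of Apobec3 and of the upstream pair of Adar starts hold none.

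All 10 genes had a positive difference between knockout and wild type, and none was lower in the knockout. Differences are log2 intensity, knockout minus wild type, and a gene with several rows is represented by its brightest row, taken over the mean of both arrays. At least 2-fold higher were 5 of the 10 genes, namely Mx2, Mx1, Eif2ak2, Samhd1 and Ifitm3, against 5.54% of the 10855 genes above the detection floor on either array. At least 2-fold lower were 0 of 10, against 4.06% of those genes. The median difference of the 10 genes was 0.88, beside -0.02 over all 10855 genes. Medians are of measured differences, and with genes above the floor on 1 array at their bound (0 where the bound has no size) these 2 stayed at 0.88 and -0.02. Positive differences were found for 48.4% of all these genes. The floor is the level that 95% of olfactory, vomeronasal and taste receptor rows stay below, and it lay at 8.97 in the knockout and 9.11 in the wild type on the log2 scale. All 10 genes passed it in the knockout and 9 in the wild type, the exception being Mx2. Of the 24 rows, 20 lay above the floor on both arrays, 3 in the knockout alone and 1 on neither. At least 2-fold higher were 10 of the 24 rows and lower 0, against 6.11% and 3.81% of all rows above the floor. At 1.5-fold, 6 genes were higher and 0 lower, against 11.6% and 12.3% of genes above the floor. At 3-fold, 3 were higher and 0 lower, against 2.59% and 0.774%.

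**Figure D2:**
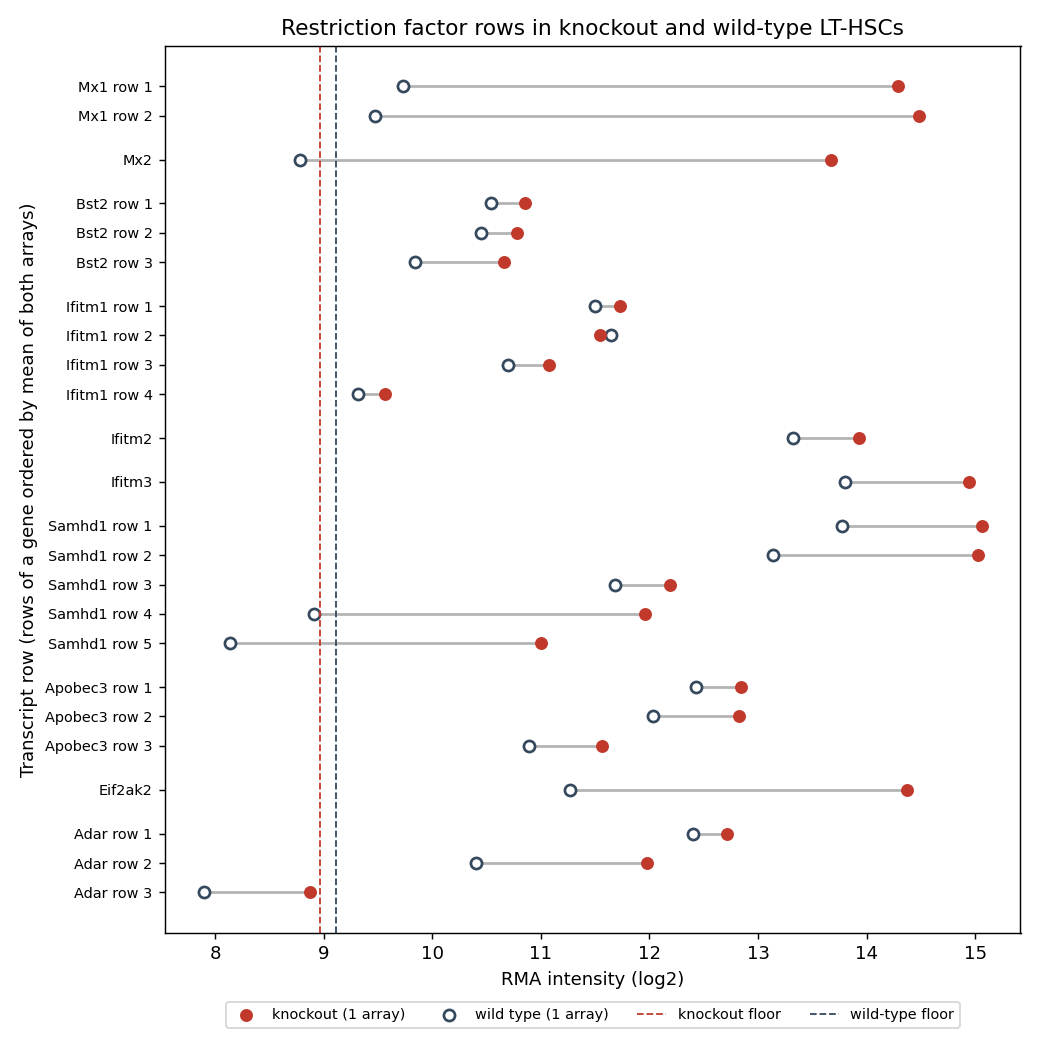
RMA intensity on the log2 scale of each of the 24 transcript rows, as a filled point for the knockout array and an open point for the wild-type array, with dashed lines at the floor of each array. Knockout points lie to the right of wild-type points in 23 of 24 rows, and the widest gaps belong to Mx1, Mx2, Eif2ak2 and the dimmest Samhd1 rows.

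The arrays also differed in transcripts of other marrow cells. Of 20 LT-HSC marker genes, 12 were above the floor in the knockout and 12 in the wild type. Of the 13 above it on either array 8 had a positive and 5 a negative difference, with 0 higher and 1 lower by 2-fold or more. The lower one was Tal1, a transcription factor gene named after its values were seen, at 8.69 in the knockout, below the floor, and 10.10 in the wild type on the log2 scale. Kit read 12.42 and 12.12 in knockout and wild type on the log2 scale, Ly6a (Sca-1) 13.37 and 12.97, and Procr and Slamf1 were below the floor on both arrays. Of 20 neutrophil markers 18 were above the floor on each array, with intensities summing to 354025 in the knockout and 254820 in the wild type, and 4 differed upward by 2-fold or more. Summed intensities of 15 monocyte and macrophage markers were 139025 and 97620. Of the 14 above the floor on either array, 10 had a positive and 4 a negative difference, with 4 at least 2-fold higher. For 16 B lineage markers the sums were 6756 in the knockout and 28627 in the wild type. On either array 13 of them passed the floor, and 9 of these 13 (69.2%) were lower by 2-fold or more. For 14 erythroid markers the sums were 54664 and 75963. Here 11 passed the floor, and 4 of these 11 (36.4%) were lower by 2-fold or more. Among all 10855 genes that passed it, 5.54% were higher and 4.06% lower by that much. The sums take in every measured marker, including those below the floor. Fewer cells of a type and less RNA per cell cannot be told apart here. What part these markers' cells have in the differences of the restriction factors was not tested.

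Mx1 and Mx2 had the largest differences of the 10. The first Mx1 row (gene ID 17857, chromosome 16 from 97668641 to 97684512 on MM9, the assembly used in the files) had an intensity of 20057 in the knockout, against 849 in the wild type. The other row, with the same span, had 22846 in the knockout and 709 in the wild type. Both rows were thus faint in the wild type and bright in the knockout, by 23.6-fold and 32.2-fold, or 4.56 and 5.01 on the log2 scale. Mx2 (gene ID 17858, chromosome 16 from 97757687 to 97782508) had an intensity of 13081 in the knockout, against 440 in the wild type. The wild-type value was below the floor, so that Mx2 was at least 23.7-fold higher in the knockout. Among the 9239 genes above the floor on both arrays, the difference of Mx1 ranked 6, counting the largest as 1. The 5 genes whose difference lay nearest to that of Mx1 over these 2 arrays were Ifit3 (4.54), Fgl2 (4.60), Cmpk2 (4.50), Ifit1 (4.73) and Ifi204 (4.29). Mx1 and Mx2 are close paralogs, and whether their probes share hybridisation was not tested, so a value for 1 of them alone is uncertain.

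The Mx genes lie 73.2 kb apart, and the genes around them did not have such differences. Between them, Fam3b, Gm9242 and Gm3337 were below the floor on both arrays. Bace2, on the outer side of Mx1, differed by 0.08, and Tmprss2, next to Mx2, by 0.46, these neighbours being picked by position after values were seen. Around all 10 genes, 59 other named genes lay within 100 kb, of which 31 were above the floor on either array. Their median difference was -0.05. Of these 31, 2 were at least 2-fold higher and 1 lower, against 5.54% and 4.06% of all 10855 genes above the floor. The higher ones were Ifitm6 (1.37), next to Ifitm3, and Prkd3 (1.04), near Eif2ak2, and the lower one was Gm14277 (-1.51), near Samhd1.

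The 3 Ifitm genes, which encode small membrane proteins, had smaller and graded differences. Ifitm3 (gene ID 66141, chromosome 7 from 148195487 to 148196595) had an intensity of 31513 in the knockout, against 14280 in the wild type. It was 2.21-fold higher in the knockout. Ifitm2 (gene ID 80876, chromosome 7 from 148140737 to 148141860) had 15630 in the knockout and 10248 in the wild type, a 1.53-fold higher level that stayed under 2-fold. Ifitm1 (gene ID 68713, brightest row on chromosome 7 from 148154046 to 148155717) had 3396 in the knockout and 2892 in the wild type. The 4 rows of Ifitm1 disagreed in sign. Their differences were 0.23, -0.10, 0.38 and 0.25, and the negative one, with intensities of 2984 in the knockout and 3209 in the wild type, was the only negative value among the 24 rows. Along the chromosome the order is Ifitm5, Ifitm2, Ifitm1, Ifitm3 and Ifitm6, with differences of -0.45, 0.61, 0.23, 1.14 and 1.37. Ifitm5 was named for its position after values were seen. The Ifitm genes are paralogs too, and shared hybridisation was not tested.

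Bst2 is the gene of tetherin and is also used as a surface marker of plasmacytoid dendritic cells. Its brightest row (gene ID 69550, chromosome 8 from 74058160 to 74061333) had an intensity of 1849 in the knockout and 1487 in the wild type. The other rows had 1758 and 1621 in the knockout, against 1399 and 916 in the wild type. All 3 rows were higher in the knockout, by 0.31, 0.33 and 0.82 on the log2 scale, and none reached 2-fold. Of 8 plasmacytoid dendritic cell markers, 4 were above the floor in the knockout and 2 in the wild type. Their summed intensities were 8620 in the knockout and 7317 in the wild type, and 0 differed by 2-fold or more. Of those above the floor on either array, 4 had a positive and 0 a negative difference. Siglech, a defining marker named after its values were seen, read 9.57 in the knockout and 8.64, below the floor, in the wild type. These values are of its brightest row, and the differences of its 4 rows ran from -0.11 to 0.92. The part of these cells in the Bst2 values was not tested.

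Samhd1 (gene ID 56045) was higher in the knockout in each of its 5 rows, but by amounts that differed widely. The brightest row, on chromosome 2 from 156924755 to 156960958, had an intensity of 34129 in the knockout and 13959 in the wild type, 2.44-fold higher. The next, from 156925134, had 33454 in the knockout and 9008 in the wild type, 3.71-fold higher. The row from 156923268 had 4679 in the knockout and 3286 in the wild type, 1.42-fold higher, and with this row in place of the brightest Samhd1 would not count as 2-fold higher. The last 2 rows were below the floor in the wild type. One, from 156929080, had 3991 in the knockout and 483 in the wild type, at least 7.23-fold higher, and the other, from 156945299, had 2044 and 281, at least 3.70-fold higher.

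The 3 Samhd1 rows that passed both floors had differences of 0.51 to 1.89, whereas differences of rows of 1 gene had a pooled SD of 0.37 over the 2892 genes with at least 2 rows above the floor on both arrays. The rows end within a short stretch at the higher coordinate and differ most at the lower one, which is the 3′ end, since the RefSeq promoter lies on the minus strand. The 3 rows that reach lowest, from 156923268, 156924755 and 156925134, differed by 0.51, 1.29 and 1.89. Of the rows that stop higher, the one from 156929080 differed by at least 2.85 and the one from 156945299 by at least 1.89, a bound that does not exceed the difference of the row from 156925134. The labels and files do not place the 3 probes of a row within its span. The knockout values of the 2 brightest rows were 15.06 and 15.03 on the log2 scale, below that array's highest value of 15.84.

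**Figure D3:**
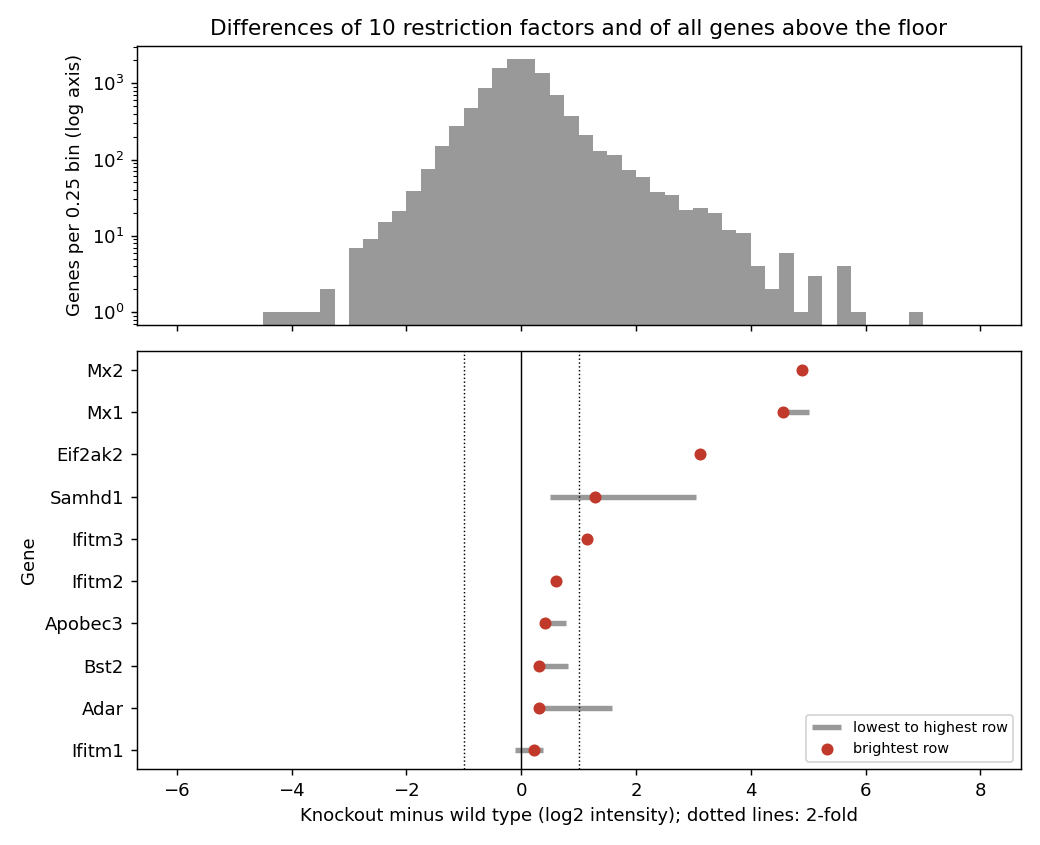
Upper panel: number of genes above the floor on either array in each bin of difference, knockout minus wild type in log2 intensity, on a log axis. Lower panel: the 10 genes, with points for the brightest row, grey lines from the lowest to the highest row and dotted lines at 2-fold, where the lines of Samhd1 and Adar cross the 2-fold line and that of Ifitm1 crosses 0.

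Apobec3, the cytidine deaminase gene known to restrict murine retroviruses, was somewhat higher in all of its rows. The brightest row (gene ID 80287, chromosome 15 from 79725452 to 79738516) had an intensity of 7349 in the knockout and 5514 in the wild type. The other rows had 7235 and 3024 in the knockout, against 4197 and 1899 in the wild type. Differences were 0.41, 0.79 and 0.67, and none of the 3 rows reached 2-fold.

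The gene of the RNA-activated kinase PKR, Eif2ak2, followed the Mx genes in size. Its single row (gene ID 19106, chromosome 17 from 79253802 to 79281875) had an intensity of 21239 in the knockout, against 2463 in the wild type. This was an 8.62-fold higher level, a difference of 3.11 on the log2 scale that ranked 41 among the 9239 genes above the floor on both arrays. The other kinases of the same initiation factor did not have such a difference. Eif2ak1, the haem-regulated kinase, differed by 0.05, its rows running from -0.52 to 0.05. Eif2ak3, the kinase of endoplasmic reticulum stress, differed by -0.96, its rows running from -1.45 to -0.24. Eif2ak4, which senses uncharged tRNA, was below the floor on both arrays by its brightest row.

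Adar differed between its rows. The brightest row (gene ID 56417, chromosome 3 from 89534705 to 89555328) had an intensity of 6732 in the knockout and 5421 in the wild type, 1.24-fold higher. A second row, from 89534705 to 89557365, had 4044 in the knockout and 1353 in the wild type, 2.99-fold higher, and Adar would count as 2-fold higher from this row. The last row, with the same span as the second, was below the floor on both arrays, at 469 in the knockout and 239 in the wild type. The gene is known to use constitutive starts and an interferon-inducible start that adds a longer protein. The files do not state which of these a row detects. Adarb1, the gene of a related editing enzyme, differed by 0.37, its rows running from 0.00 to 0.98.

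Rows of the same gene put a scale on the smaller values. The differences of Ifitm1, Adar and Bst2 from their brightest rows, 0.23, 0.31 and 0.31, were under the SD of 0.37 between rows of 1 gene, and those of Apobec3 and Ifitm2 were 0.41 and 0.61. That SD is a spread between probe sets and not between animals.

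Relatives of these genes by sequence family, kept as a separate list whether or not a member also restricts viruses, centred near 0. Of 22 such genes 13 passed the floor, and their median difference was 0.05, or 0.02 with 1 gene at its bound. Of the 13, 2 (15.4%) were 2-fold or more higher and 0 lower, against 5.54% and 4.06% of all genes above the floor. The higher ones were Ifitm6 (2.58-fold, intensities on the log2 scale of 12.11 in the knockout and 10.75 in the wild type) and Apobec1, the apolipoprotein B mRNA editing enzyme (2.23-fold, 12.65 and 11.50). Neutrophil and monocyte markers had positive medians on the same arrays, 0.43 and 0.50, and their part in these values was not tested. Dnm2, a dynamin of endocytosis, differed by 0.12, its rows running from -0.83 to 0.17. Ifitm10 was below the floor on both arrays.

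Other genes known to restrict viruses had a wider range of differences. The floor was passed by 37 of 38 such genes, whose median difference was 1.54, or 1.31 with 6 genes at their bound. Knockout levels were 2-fold or more higher for 21 of the 37 (56.8%) and lower for 1 (2.70%). Over all genes above the floor, these shares were 5.54% and 4.06%. The 4 with the highest differences, counting genes below a floor at their bound, were Slfn5 (5.66, its rows from 3.73 to 5.66), Ifit2 (5.10), Ifit1 (4.73) and Ifit3 (4.54). The lower one was Serinc5, whose product reduces infectivity of retroviral particles, 2.42-fold lower with log2 intensities of 10.79 in the knockout and 12.07 in the wild type.

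Interferon genes and their signalling chain had a median difference of 0.52 over the 18 genes that passed the floor, or 0.34 with 4 genes at their bound. Among them 4 (22.2%) were higher by 2-fold or more and 0 lower, against 5.54% and 4.06% of all genes above the floor. Stat2 was 6.88-fold higher, with log2 intensities of 14.44 in the knockout and 11.66 in the wild type. Irf9, whose product acts in the same complex, differed by 0.46, its rows running from -0.08 to 0.81. Irf7, the interferon-induced factor that amplifies interferon production, read 12.04 in the knockout, against 8.73 in the wild type, where it missed the floor. By this brightest row it was at least 7.62-fold higher, and the measured differences of its 2 rows were 1.16 and 3.31. The kinase gene Jak2 was 2.80-fold higher. Ifnb1, the interferon beta gene, passed the knockout floor narrowly, at 9.34, with 6.13 in the wild type, and was at least 1.17-fold higher.

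Partners of PKR and ADAR in handling double-stranded RNA and the initiation factor eIF2, in a list that also held necroptosis genes, were split. The median difference was 0.25 over 20 genes that passed the floor, or 0.16 with 3 genes at their bound. Of the 20, 4 (20%) were higher by 2-fold or more and 0 lower, against 5.54% and 4.06% of all genes above the floor. The higher ones were the RNA sensor genes Ddx58 (14.8-fold), Ifih1 (at least 14.6-fold) and Dhx58 (9.52-fold) and the necroptosis effector gene Mlkl (8.21-fold). The gene of the PKR substrate, Eif2s1, differed by 0.19, and the stress response genes Atf4 and Ddit3 by 0.02 and 0.14, genes chosen after their values were seen.

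Genes that make or salvage nucleotides, whose pool SAMHD1 lowers, had a negative median of -0.41 by measured differences and by bounds alike. Among the 15 that passed the floor, 4 had a positive and 11 a negative difference. By 2-fold or more, 2 (13.3%) were higher and 1 (6.67%) was lower, against 5.54% and 4.06% of all genes above the floor. Dck, which phosphorylates salvaged deoxynucleosides, was 2.97-fold higher and Pnp, a nucleoside phosphorylase, 2.27-fold. Dut, which removes dUTP, was 6.42-fold lower, with log2 intensities of 10.42 in the knockout and 13.10 in the wild type.

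**Figure D4:**
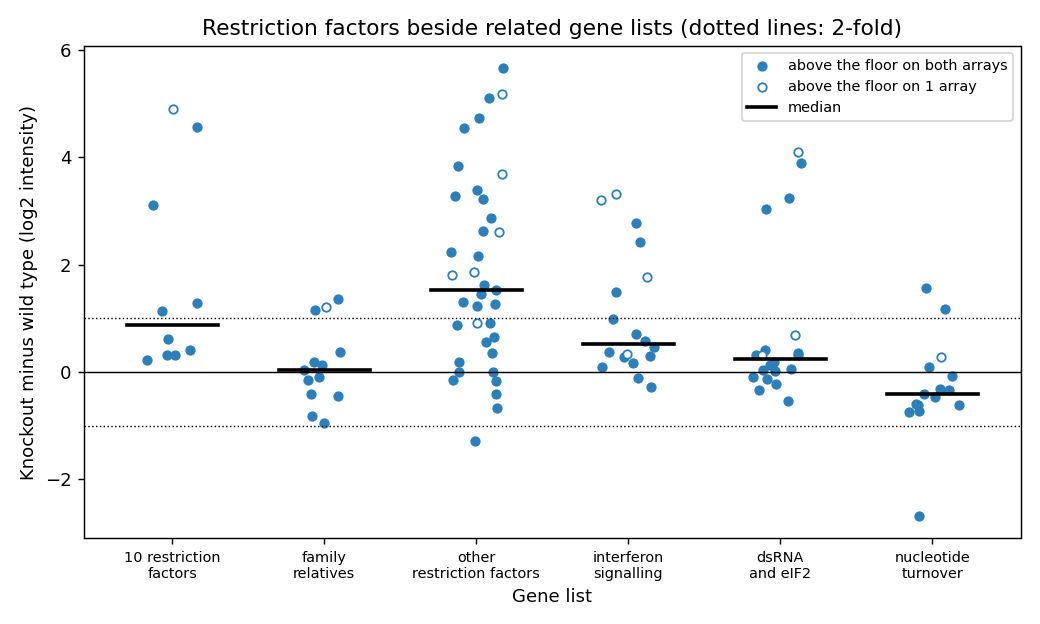
Difference between knockout and wild type in log2 intensity for genes above the floor on either array, by list, with filled points for genes above the floor on both arrays, open points, at their measured difference, for 1 array, bars at the median of these measured differences and dotted lines at 2-fold. The 10 restriction factors all lie above 0 with a median of 0.88, between the family relatives (0.05) and the other restriction factors (1.54), and with genes of 1 array at their bound the 3 medians were 0.88, 0.02 and 1.31.

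Among the genes with a promoter window, the ISRE core matches shown above did not sort the genes by size of difference. Mx1 and Mx2, which had the largest differences, had no window and were not searched. Genes with a core were Eif2ak2 (3.11), Ifitm3 (1.14), Ifitm2 (0.61), Apobec3 (0.41) and Bst2 (0.31), and genes with none were Samhd1 (1.29), Adar (0.31) and Ifitm1 (0.23). Over all genes above the floor with a RefSeq window, 75 of 320 with a core (23.4%) and 389 of 7300 without one (5.33%) had a knockout level 2-fold or more higher. A match of letters describes the sequence and does not show binding, and the absence of a match concerns these windows alone.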

How the data were processed

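RNA of sorted LT-HSCs, reverse-transcribed from oligo dT primers per the labels' protocols, was profiled on 2 single-colour Cy3 NimbleGen arrays, 1 knockout and 1 wild type. The deposited values are linear intensities, 1 per transcript row, and RMA is named in the submitters' processing notes without a version. As generally defined, RMA equalises the distributions of arrays, so differences are relative to other genes. The sources used here do not say which arrays entered that step. Per the file headers, 44155 of 44170 rows come from 3 probes. Coordinates are those of MM9 as written in the files, with the counting of the first base not stated. The series-wide table held the same intensities, within 1.277e-06 on the log2 scale.

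The log2 of each deposited intensity was used with no further normalization (Python 3.11.15, pandas 2.3.3). Symbols were updated by gene ID from a RefSeq table of GRCm38.p6, whose coordinates were used for promoter sequences alone. The floor came from 1025 receptor rows. A gene above the floor on 1 array is given as at least the bright value over the other array's floor. Arrays correlated with r = 0.896 across the 9239 genes above both floors, and genes are not independent replicates. Precision is limited by the number of arrays. The steps were tested on simulated data.

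The 10 genes, the lists and the alternatives were chosen with earlier results of these data known. The text names all 10 genes, up to 4 list genes per direction with a difference of at least 1, a fixed set of relatives and signalling genes (some members of that set are not reported here), the genes nearest to Mx1 and the LT-HSC markers Kit, Ly6a, Procr and Slamf1, and says where others were chosen after seeing values. Alternatives were other rows, floors, folds, centring (loess, span 0.3) and the series-wide table. Removal of cia-cGAS itself was not analysed here.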

Additional observations from a re-analysis of the deposited data

How the results depend on the processing

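No paired analysis was possible because each group has 1 array and the labels give no replicate numbers. With no replicates, a difference was taken to have moved when it changed by at least the SD of 0.37 between rows of 1 gene, and a count when it changed by more than 1.5 times. The count of 5 restriction factors at least 2-fold higher became 3 at 3-fold (Mx1, Mx2 and Eif2ak2) and was 4 with the row nearest to 0, where Samhd1 dropped out. It was also 4 when every row above the floor had to pass, an alternative chosen after seeing the data. The mean of the 10 differences was 1.69, against the median of 0.88. Family relatives at least 2-fold higher numbered 4 with no floor and 0 at 3-fold. Interferon signalling genes at least 2-fold higher numbered 7 with no floor. Nucleotide genes lower by at least 1.5-fold numbered 6 of the 15 above the floor, against 12.3% of all genes above it. In the other 73 combinations of these counts and this median with an alternative, the value stayed within those limits. Samhd1 differed by 1.92 with rows averaged and 0.51 with the row nearest to 0, and Adar by 0.96 with rows averaged, the other 67 such combinations of a gene and an alternative staying within the limits. The cause was not tested. After loess centring the median difference was 0.92. Signal limits the wild-type values of Mx2 and of 2 Samhd1 rows, which lie below the floor.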
